A study of Homo sapiens with 6 samples.

Results

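The kinesin superfamily was examined in TPC-1 papillary thyroid carcinoma cells with and without overexpression of *RRM2*, the small subunit of ribonucleotide reductase. The members were the protein-coding genes whose symbol starts with KIF or KIFC followed by a digit, without *KIF1BP*, which encodes a kinesin-binding protein. This gave 42 of the 19951 protein-coding genes and of the 58735 genes in all. By textbook role, 14 were listed as mitotic, 17 as transport and 11 as other or mixed kinesins.

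Kinesins are motor proteins that hydrolyse ATP to move along microtubules or to take them apart at their ends. The mitotic members build and shorten the spindle, move chromosomes and assemble the central spindle on which cytokinesis depends, and most of their genes are transcribed mainly in G2 and M phase. The transport members carry vesicles, mitochondria and other cargo through the cytoplasm in interphase cells, and several of them work chiefly in neurons.

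mRNA was sequenced from 3 libraries of wild strain TPC-1 cells, whose genotype label reads WT, and from 3 libraries of *RRM2*-OE-TPC-1 cells, the same human line infected with a lentivirus that expresses full-length *RRM2* from a CMV promoter. The infected cells were selected with puromycin, no single clone is described, and the wild strain cells carried no vector, so that an effect of *RRM2* and an effect of infection and selection cannot be told apart. The titles of all 3 infected libraries give *RRM2*, whereas the genotype labels of replicates 2 and 3 read RRM3 and RRM4. *RRM2* itself measured 9.17, 9.05 and 8.52 FPKM (fragments scaled to gene length and library depth) in the TPC-1 libraries and 50.4, 47.5 and 47.2 in the *RRM2*-OE-TPC-1 libraries (log2 fold change 2.43, SE 0.044, limma adjusted p = 1.11e-08). The FPKM of *RRM2* does not separate transcripts of the lentivirus from those of the cells' own gene. On the same strand, 20.2% of its exon bases are shared with the gene AC007240.1, which averaged 0.466 FPKM. Each library held 14317091 to 17084067 reads on genes. *PAX8* was the highest of the 10 thyroid markers, 3 of which passed the filter on low values, and the thyroid factor *NKX2-1* had 0 reads in all 6 libraries. The epithelial markers summed to 42.9 to 47.1 FPKM in TPC-1 and 88.4 to 90.8 in *RRM2*-OE-TPC-1, of which *KRT18* alone made up 39.4 to 43.0 and 83.7 to 85.9 and the other 5 markers 3.50 to 4.15 and 4.6 to 4.9. The thyroid markers summed to 74.0 to 77.9 and 64.3 to 67.7 FPKM, of which *PAX8* made up 67.3 to 70.8 and 56.3 to 59.8 and the other 9 markers 6.71 to 7.11 and 7.75 to 8.28. Fibroblast markers summed to 2.97 to 3.37 and 2.94 to 3.05 FPKM, endothelial markers to 1.10 to 1.35 and 0.456 to 0.542, and leukocyte markers to at most 0.0221 and 0.129. The part of these marker shifts in the results on kinesins was not tested.

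A gene was tested if it had at least 0.5 FPKM and 10 reads in 3 or more libraries. It is said to have risen or fallen when limma on log2(FPKM + 0.1) gave a Benjamini-Hochberg adjusted p of 0.05 or less over all 13621 tested genes, and fold changes are on that scale. By this rule 32 of the 42 kinesins were tested, 12 mitotic, 13 transport and 7 other. 18 of them rose and 5 fell in *RRM2*-OE-TPC-1, beside 34.9% and 32.7% of all tested genes. 3 kinesins also passed an absolute log2 fold change of 1, namely *KIF20B*, *KIF13B* and *KIF12*, where 11.5% of all tested genes did. The 3 values of one group lay wholly above or below those of the other for 26 of the 32, beside 72.2% of all tested genes, so that over the whole family this share was near the background.

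By role, the counts were as follows. Of the 12 tested mitotic kinesins 11 rose and 0 fell, with a median log2 fold change of 0.68 and a range of 0.11 to 1.13. 5 of the 13 transport kinesins rose, 3 fell and 5 did not pass, with a median of 0.09. Among the 7 other kinesins 2 rose, 2 fell and 3 did not pass, with a median of -0.03. Over all tested genes 34.9% rose, 32.7% fell and the median was 0.01. Of the 11451 tested protein-coding genes 4384 rose and 3760 fell. The shares of transport and other kinesins that rose were thus near the background. In a culture, a larger share of cells in G2 and M phase and more transcript per cell cannot be told apart. By flow cytometry the paper reported a lower share of *RRM2*-OE-TPC-1 cells in G0/G1 and a higher share in S phase. Its text gives no share for G2 and M phase.

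**Figure D1:**
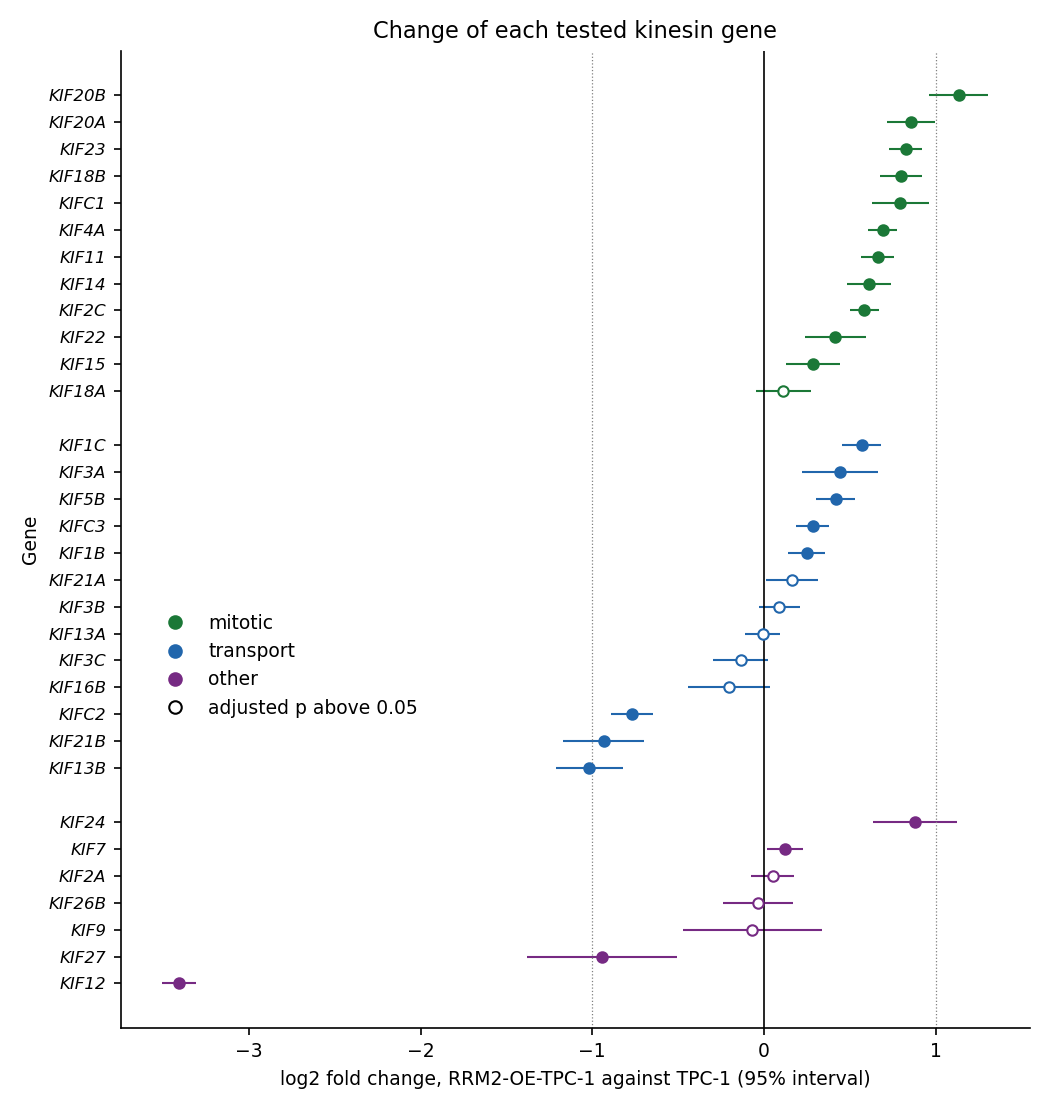
Log2 fold change of each tested kinesin gene, RRM2-OE-TPC-1 against TPC-1, with its 95% interval (n = 3 libraries per group), in the order mitotic, transport and other from top to bottom. Filled points passed an adjusted p of 0.05 and dotted lines mark a log2 fold change of 1 in either direction. All 12 mitotic points lie above 0, whereas the transport points run from -1.02 to 0.57 and *KIF12* lies at -3.41.

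The promoters of the kinesin genes are shown first for the letters that they hold. Many genes of G2 and M phase carry a CHR (cell cycle genes homology region), which binds the DREAM and MYBL2-MuvB complexes, close to CCAAT boxes, which bind NF-Y. The letters TTTGAA or TTCGAA for the CHR, and CCAAT, were searched on both strands of RefSeq windows from 250 bases before to 50 bases after each annotated start (GRCh38.p14), with overlapping matches each counted. 34 kinesins had 43 such windows, and *KIF13B*, *KIFC2*, *KIFC3*, *KIF21B*, *KIF26B*, *KIF19*, *KIF27* and *KIF5A* had no entry. The following stretches are the 140 bases before the start, 5′ to 3′ on the gene's strand, with CHR and CCAAT letters of either orientation in capitals. *KIF11*, *KIF4A*, *KIF18B* and *KIF20B* are mitotic kinesins that rose, *KIF4B* is the intronless copy of *KIF4A*, *KIF5B* and *KIF24* are the transport and the other kinesin whose windows held CHR letters, and *KIF12* is the kinesin with the largest fall.
KIF11 (chr10:92592990-92593129, plus strand): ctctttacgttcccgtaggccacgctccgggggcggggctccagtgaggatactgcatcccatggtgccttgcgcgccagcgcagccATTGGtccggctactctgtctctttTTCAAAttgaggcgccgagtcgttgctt
KIF4A (chrX:70289964-70290103, plus strand): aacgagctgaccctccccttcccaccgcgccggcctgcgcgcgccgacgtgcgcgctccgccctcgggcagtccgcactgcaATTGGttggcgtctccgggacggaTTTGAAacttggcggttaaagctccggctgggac
KIF4B (chr5:155013615-155013754, plus strand): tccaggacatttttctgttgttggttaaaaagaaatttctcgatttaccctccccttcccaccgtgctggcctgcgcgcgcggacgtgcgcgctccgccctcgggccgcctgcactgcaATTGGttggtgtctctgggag
KIF18B (chr17:44947774-44947913, minus strand): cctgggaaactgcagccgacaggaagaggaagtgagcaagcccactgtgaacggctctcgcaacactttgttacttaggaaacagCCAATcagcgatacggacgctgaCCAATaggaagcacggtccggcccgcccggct
KIF20B (chr10:89701450-89701589, plus strand): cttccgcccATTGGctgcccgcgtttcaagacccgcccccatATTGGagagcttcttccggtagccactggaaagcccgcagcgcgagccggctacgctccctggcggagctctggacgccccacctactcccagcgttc
KIF5B (chr10:32056426-32056565, minus strand): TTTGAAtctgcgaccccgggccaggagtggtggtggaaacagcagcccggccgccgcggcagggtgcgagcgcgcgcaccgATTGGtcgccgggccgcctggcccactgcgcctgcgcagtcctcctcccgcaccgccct
KIF24 (chr9:34329269-34329408, minus strand): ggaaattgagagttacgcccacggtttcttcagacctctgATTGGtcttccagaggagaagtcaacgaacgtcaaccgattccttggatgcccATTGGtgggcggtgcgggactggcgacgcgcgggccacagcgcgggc
KIF12 (chr9:114099293-114099432, minus strand): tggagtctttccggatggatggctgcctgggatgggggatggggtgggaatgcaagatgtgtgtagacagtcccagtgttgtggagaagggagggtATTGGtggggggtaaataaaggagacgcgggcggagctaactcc

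CHR letters stood in 12 of the 15 mitotic windows (80.0%), in 1 of the 17 transport windows (5.88%) and in 1 of the 11 other windows (9.09%), beside 16.4% of the 35116 windows of all genes. The 2 windows of *KIF22* overlap and hold the same TTCGAA. By gene, CHR letters stood in 11 of 14 mitotic, 1 of 12 transport and 1 of 8 other kinesins, beside 5336 of 27305 genes. CCAAT stood in 73.3% of the mitotic, 29.4% of the transport and 36.4% of the other windows, beside 34.6% of all. Both were present in 10 mitotic windows (66.7%), beside 6.38% of all. In *KIF11*, the tetrameric motor that pushes spindle poles apart, the CHR letters lay 28 bases and CCAAT 53 bases before the RefSeq start. In *KIF4A*, a chromokinesin of the central spindle, they lay 34 and 58 bases before it. The CHR letters of *KIF18B*, *KIF20B*, *KIF4B* and *KIF24* lay after the start and so beyond the printed stretches, and those of *KIF14* and *KIFC1*, not printed here, also lay after it.

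Of the 26 tested kinesins with a window, 12 held CHR letters and 11 of these rose. Of the 14 without CHR letters 6 rose, beside 34.9% of all tested genes. Most of the windows with CHR letters were those of mitotic kinesins, of which 9 of 10 with the letters and 2 of 2 without them rose. *KIF20A* and *KIF2C* rose although their windows held no CHR letters, and *KIF2C* held no CCAAT either. *KIF18A* held both, 10 and 45 bases before its start, and did not pass the test. The transport kinesin *KIF5B* held CHR letters 140 bases before its start and rose. *KIF24*, which lies outside the mitotic list, held TTCGAA and 3 CCAAT boxes and rose. Its RefSeq window (chr9:34329219-34329518) lies upstream of, and outside, the gene span used for its FPKM (chr9:34252381-34311371). Some other windows also lie outside the span used. Among them are those of *KIF11* (chr10:92592880-92593179, span chr10:92593286-92655395) and *KIF18B* (chr17:44947724-44948023, span chr17:44924709-44947711). Over all 9518 tested genes with a window, the median log2 fold change was 0.08 for the 769 genes with both letters. It was 0.06 for the 649 with CHR letters alone, 0.05 for the 3329 with CCAAT alone and 0.00 for the 4771 with neither. How many of these genes rose by the test was not counted, and the part of the letters in the changes was not tested.

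**Figure D2:**
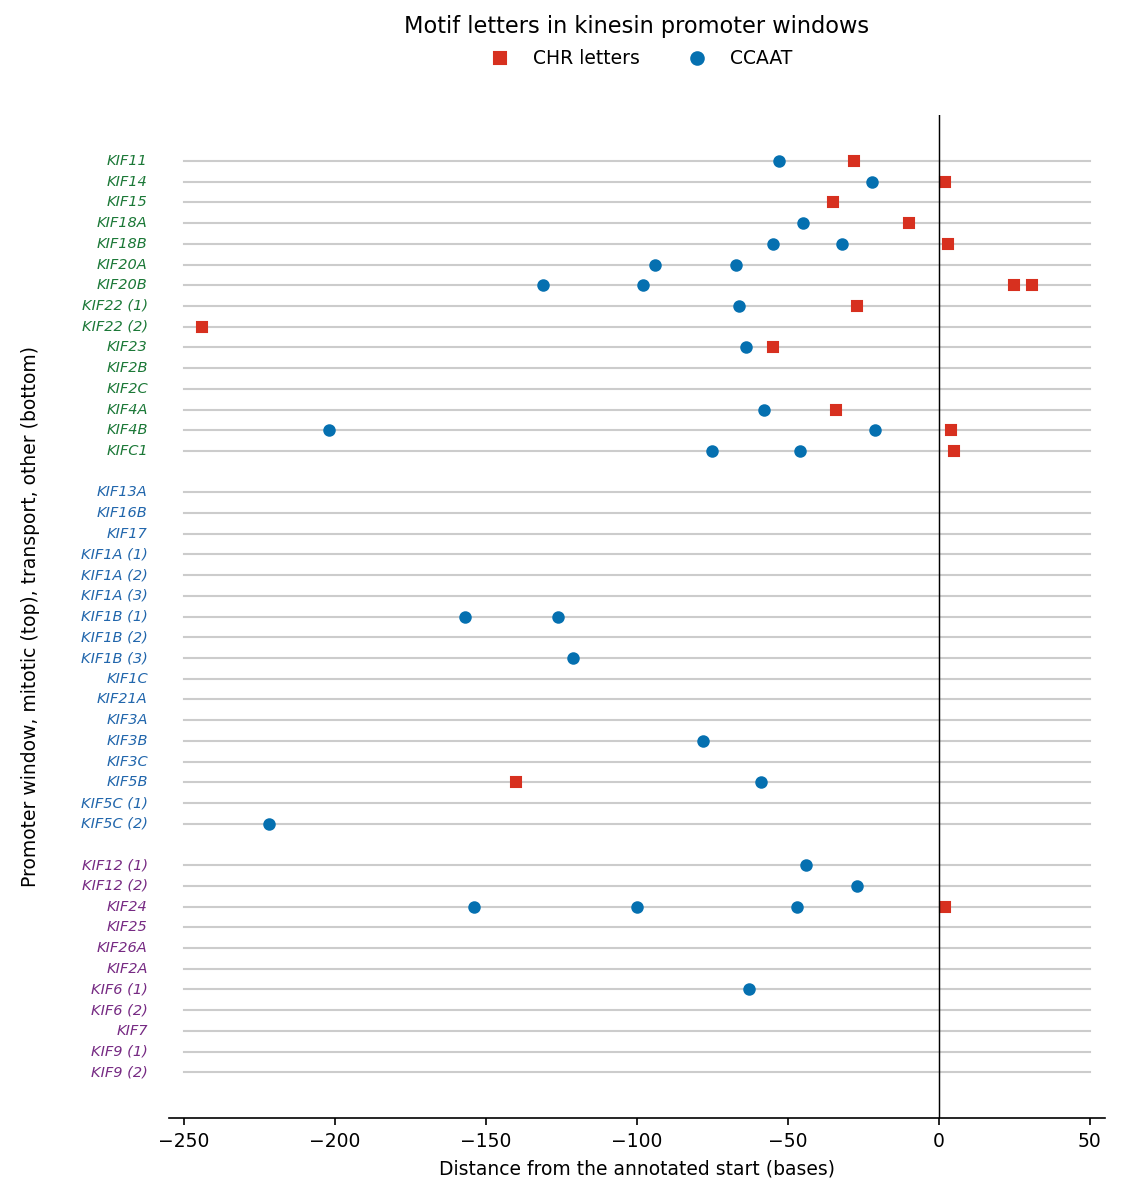
Positions of CHR letters (squares) and CCAAT (circles) in the 43 RefSeq promoter windows of 34 kinesin genes, as distance in bases from the annotated start, with mitotic genes at the top, transport genes in the middle and other genes at the bottom. Numbers in brackets mark several starts of one gene. CHR letters stand in 12 of 15 mitotic windows and in 1 window of each of the other roles.

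Among the mitotic kinesins, *KIF11* (chr10:92593286-92655395, GENCODE 29, GRCh38) measured 15.3, 15.8 and 16.5 FPKM in TPC-1 replicates 1 to 3 and 24.5, 25.8 and 25.3 in *RRM2*-OE-TPC-1 replicates 1 to 3. It rose with a log2 fold change of 0.66 (SE 0.042, adjusted p = 3.63e-06), and all 3 infected libraries lay above all 3 wild strain libraries.

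*KIF20A* (MKLP2, chr5:138178719-138187715) brings the chromosomal passenger complex to the central spindle. It measured 13.6, 12.4 and 13.7 FPKM in TPC-1 and 22.5, 25.6 and 24.2 in *RRM2*-OE-TPC-1. The groups did not overlap, and the log2 fold change was 0.86 (SE 0.059, adjusted p = 6.07e-06).

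*KIF23* (MKLP1, chr15:69414246-69448427) forms the centralspindlin complex with RACGAP1. Its level was 11.4, 11.3 and 11.9 FPKM in TPC-1 and 21.3, 20.3 and 19.9 in *RRM2*-OE-TPC-1. All infected libraries were above all wild strain libraries, with a log2 fold change of 0.83 (SE 0.042, adjusted p = 1.26e-06).

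The largest rise in the family was that of *KIF20B* (MPP1, chr10:89701610-89774939), which acts late in cytokinesis. It went from 4.66, 5.76 and 5.25 FPKM to 11.7, 11.4 and 11.6, a 2.19-fold rise (log2 fold change 1.13, SE 0.075, adjusted p = 4.76e-06). Its spread was wider in TPC-1 than in *RRM2*-OE-TPC-1, with SDs of 0.551 and 0.141 FPKM.

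*KIF18A* (chr11:28020620-28108308), which dampens the oscillation of chromosomes at the metaphase plate, was the tested mitotic kinesin that did not pass. It measured 6.53, 6.98 and 6.73 FPKM in TPC-1 and 6.61, 7.73 and 7.64 in *RRM2*-OE-TPC-1, and the groups overlapped through *RRM2*-OE-TPC-1 replicate 1. The log2 fold change was 0.11 (95% interval -0.05 to 0.27, adjusted p = 0.182), and without that library it was 0.18 (adjusted p = 0.0234).

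The remaining mitotic kinesins rose by 0.29 to 0.80 on the log2 scale with no overlap between the groups. *KIF18B*, which shortens astral microtubules, rose from 11.0 ± 0.562 to 19.3 ± 0.959 FPKM (mean ± SD, n = 3), and *KIFC1*, the minus-end motor that clusters centrosomes, from 12.8 ± 0.714 to 22.3 ± 2.05. *KIF4A* rose from 9.31 ± 0.0796 to 15.1 ± 0.146 FPKM, and *KIF14*, which recruits citron kinase to the midbody, from 7.19 ± 0.414 to 11.0 ± 0.352. *KIF2C* (MCAK), which takes microtubules apart at kinetochores, rose from 13.7 ± 0.219 to 20.6 ± 0.460 FPKM. The smallest rises were those of the chromokinesin *KIF22* (log2 fold change 0.42, SE 0.076) and of *KIF15* (0.29, SE 0.068), a spindle motor that can stand in for *KIF11*.

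2 mitotic members were not tested. *KIF2B*, an MCAK relative, had 0 reads in every library, where 3 reads would correspond to 0.0757 to 0.0897 FPKM. *KIF4B* had 10 reads in all. It has 1 exon, where the longest *KIF4A* transcript has 31, and over 144 aligned bases of their promoter windows 135 were identical (93.8%), as the printed stretches show in part. Reads could be split between such copies, so the value of *KIF4B* is uncertain.

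**Figure D3:**
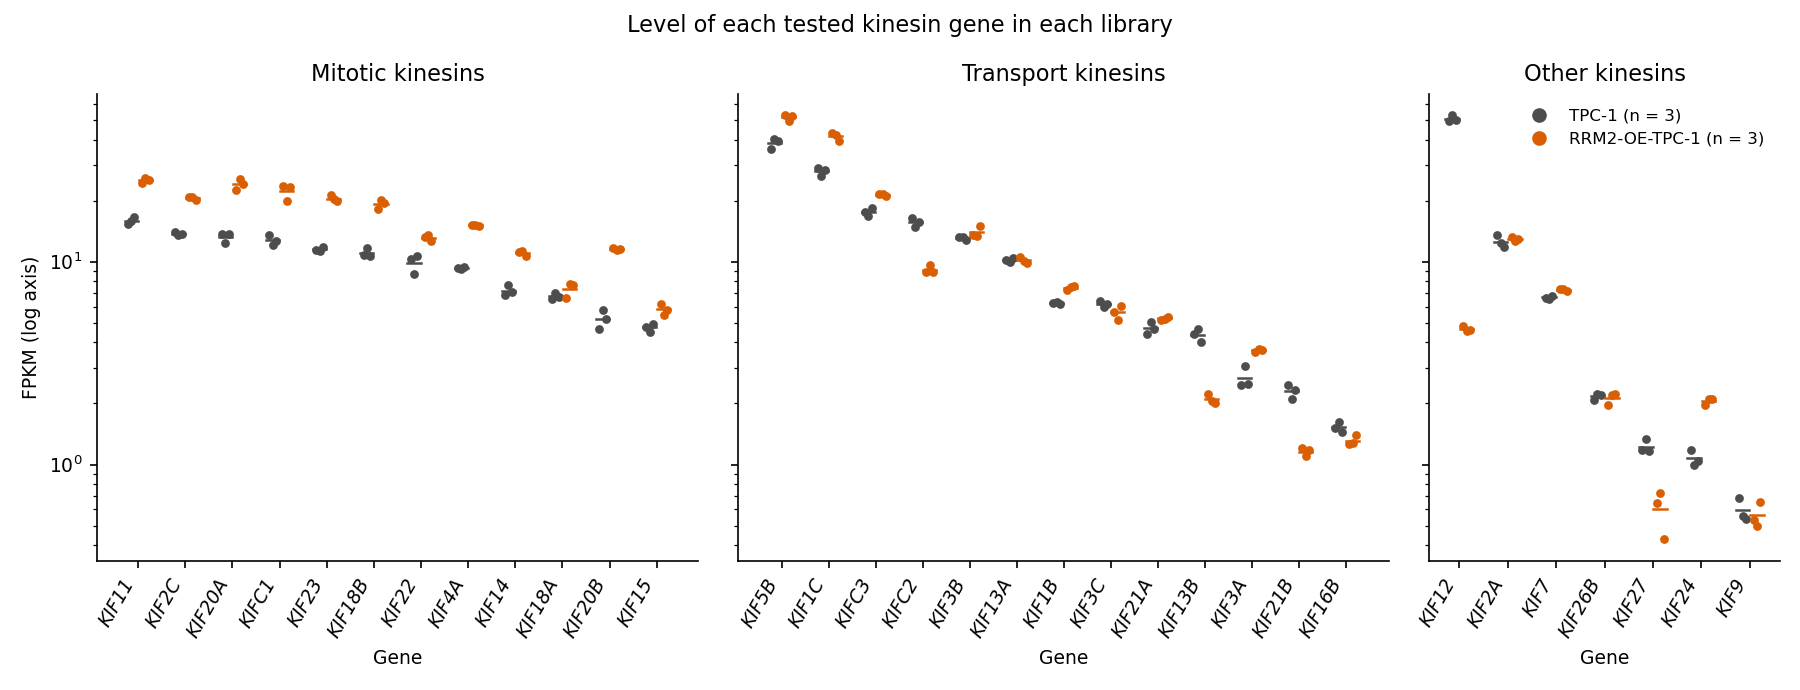
FPKM on a log axis of each of the 32 tested kinesin genes in each library (points) with the mean of each group (bars), by role and in falling order of the TPC-1 mean. The mitotic panel shows the orange *RRM2*-OE-TPC-1 points above the grey TPC-1 points for all genes but *KIF18A*, whose groups overlap, and *KIF12* drops from 50.5 to 4.67 FPKM.

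Of the transport kinesins, *KIF5B* (chr10:32009010-32056431), the ubiquitous heavy chain of kinesin-1, had the highest level of this role. It measured 36.1, 40.3 and 39.5 FPKM in TPC-1 and 53.1, 49.4 and 52.2 in *RRM2*-OE-TPC-1. The groups did not overlap (log2 fold change 0.42, SE 0.050, adjusted p = 0.000128).

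*KIF3A* (chr5:132692628-132737638) is a motor subunit of heterotrimeric kinesin-2, which builds cilia. It measured 2.45, 3.08 and 2.50 FPKM in TPC-1 and 3.58, 3.70 and 3.68 in *RRM2*-OE-TPC-1. It rose with a log2 fold change of 0.44 (SE 0.096, adjusted p = 0.00386), and TPC-1 replicate 2 was the nearest to the infected libraries.

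*KIF1A*, the neuronal carrier of synaptic vesicle precursors, had 0 reads in all 6 libraries, where 3 reads would correspond to 0.0105 to 0.0124 FPKM. Of the neuronal heavy chains of kinesin-1, *KIF5A* had 0 reads in the wild strain and 4 in the infected libraries, and *KIF5C* had means of 0.476 and 0.359 FPKM, below the filter. *KIF17*, a dendritic and ciliary motor, was untested, with means of 0.278 and 0.293 FPKM.

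The largest rise among transport kinesins was that of *KIF1C*, a fast carrier of dense-core vesicles and integrins. Its level was 29.1, 26.6 and 28.4 FPKM in TPC-1 and 43.3, 42.1 and 39.5 in *RRM2*-OE-TPC-1. No library of one group reached the other (log2 fold change 0.57, SE 0.049, adjusted p = 1.97e-05). The other 2 that rose were the minus-end motor *KIFC3* (log2 fold change 0.28, SE 0.041) and the mitochondrial and vesicle carrier *KIF1B* (0.25, SE 0.046).

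*KIF13B* (chr8:29067279-29263124), which carries phosphoinositide-bound vesicles, had the largest fall of this role. It measured 4.42, 4.66 and 4.00 FPKM in TPC-1 and 2.24, 2.06 and 2.01 in *RRM2*-OE-TPC-1. The log2 fold change was -1.02 (SE 0.085, adjusted p = 1.67e-05) and ranged from -1.08 to -0.97 when each library was left out in turn, so that its place past a log2 fold change of 1 depended on single libraries. *KIF21B*, which restrains microtubule growth in neurons and lymphocytes, fell from 2.31 ± 0.185 to 1.16 ± 0.0522 FPKM (log2 fold change -0.93), and *KIFC2* from 15.7 ± 0.808 to 9.15 ± 0.376 (log2 fold change -0.77).

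The 5 transport kinesins that did not pass lay between -0.20 and 0.16 on the log2 scale. They were *KIF21A* (0.16, 95% interval 0.01 to 0.31, adjusted p = 0.0541), the kinesin-2 subunits *KIF3B* (0.09) and *KIF3C* (-0.14), and the endosomal motors *KIF13A* (-0.01) and *KIF16B* (-0.20).

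Outside both roles, *KIF12* (chr9:114086126-114099291) changed most. This little-studied kinesin is expressed in kidney and liver, where mutations are linked to cholestasis. It measured 49.2, 52.6 and 49.8 FPKM in TPC-1 and 4.81, 4.58 and 4.63 in *RRM2*-OE-TPC-1. Its mean was 10.8 times higher in TPC-1, and the log2 fold change of -3.41 (SE 0.042, adjusted p = 2.91e-09) was the fall at rank 20 among the 13621 tested genes. By mean level it ranked first of all kinesins in TPC-1 and 24 of 42 in the infected cells, where *KIF5B* ranked first.

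*KIF24*, which acts at the mother centriole against cilium growth, is counted with the other kinesins. It measured 1.18, 0.999 and 1.04 FPKM in TPC-1 and 1.97, 2.10 and 2.10 in *RRM2*-OE-TPC-1, with no overlap (log2 fold change 0.88, SE 0.10, adjusted p = 0.000131). Of its exon bases 2.33% lie opposite *UBAP1*, which averaged 31.1 FPKM, and whether strand was used in counting is not given in the sources used here.

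*KIF27*, a relative of the Hedgehog regulator *KIF7*, fell from 1.23 ± 0.10 to 0.60 ± 0.155 FPKM (log2 fold change -0.94, SE 0.19, adjusted p = 0.00246). *KIF7* passed narrowly at a log2 fold change of 0.12 (SE 0.045, adjusted p = 0.0387). Its adjusted p was 0.0603 to 0.0998 when any library was left out, and 11.8% of its exon bases lie opposite *TICRR*. The microtubule depolymerase *KIF2A* (0.05, adjusted p = 0.443), *KIF26B* (-0.03, adjusted p = 0.754) and the ciliary *KIF9* (-0.07, adjusted p = 0.741) did not pass. *KIF2A* shares 8.97% of its exon bases with *IPO11* on the same strand, and 14.9% of those of *KIF9* lie opposite *KIF9-AS1*. *KIF2A*, counted here as mixed, would bring the mitotic list to 11 risen of 13 tested with a median of 0.66. *KIF25* had 31 reads in the wild strain and 7 in the infected libraries, *KIF6* 6 reads in all, *KIF26A* 2 and *KIF19* 0, and none of these was tested.

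Since FPKM is scaled to gene length, the levels could be added up by role. The mitotic kinesins summed to 119.8 to 123 FPKM in the TPC-1 libraries and to 195 to 197 in the *RRM2*-OE-TPC-1 libraries. Transport kinesins summed to 151 to 154 and 173 to 178. Within that sum the mean of *KIF5B* went from 38.6 to 51.6 FPKM and that of *KIF1C* from 28.0 to 41.6, while 3 transport kinesins fell. The sum of the other kinesins was 75.0 ± 1.69 and 30.3 ± 0.271 FPKM, and without *KIF12* it was 24.5 ± 0.903 and 25.7 ± 0.15. As a share of all kinesin FPKM, the mitotic members went from 34.8% ± 0.368 to 48.8% ± 0.492 (SD, n = 3) and *KIF12* from 14.5% ± 0.544 to 1.16% ± 0.0246, while the transport share was 43.6% ± 0.188 and 43.6% ± 0.461. *KIF12* is part of the sum from which these shares are taken, so its fall by itself raises the mitotic and transport shares.

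**Figure D4:**
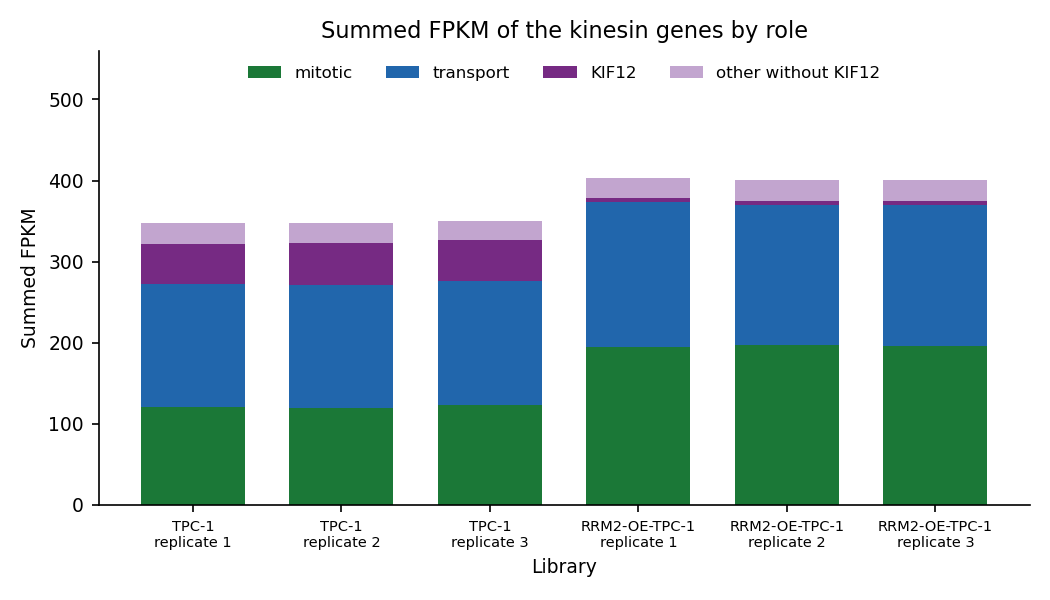
Summed FPKM of the 42 kinesin genes in each of the 6 libraries, split into mitotic, transport, *KIF12* and the remaining other kinesins. The mitotic part is 119.8 to 123 FPKM in TPC-1 and 195 to 197 in RRM2-OE-TPC-1, and the *KIF12* part shrinks from 50.5 to 4.67 FPKM on average.

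Closely related kinesins could be set against each other within each library, since numbered relatives share their motor type. In 8 of 9 such pairs the log2 ratio of the 2 genes did not overlap between the groups, each at p = 0.1, the smallest 2-sided p that the exact permutation test allows with 3 against 3 (adjusted p = 0.113 over 9 pairs). No pair could thus pass 0.05, and each change in ratio is the difference between the fold changes of its 2 genes. The pairs share genes, and 72.2% of single tested genes did not overlap either. The share among ratios of other gene pairs was not counted. *KIF18A* over *KIF18B* had log2 ratios of -0.71, -0.73 and -0.65 in TPC-1 and -1.45, -1.36 and -1.34 in *RRM2*-OE-TPC-1. *KIF21A* over *KIF21B* went the other way, from a mean of 0.99 ± 0.21 to 2.09 ± 0.066, and *KIF13A* over *KIF13B* from 1.21 ± 0.14 to 2.22 ± 0.030. *KIF2A* over *KIF2C* went from -0.13 ± 0.078 to -0.66 ± 0.054. Only *KIF20A* over *KIF20B*, of the 9 pairs, overlapped (1.33 ± 0.22 and 1.05 ± 0.11, exact permutation p = 0.2).

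Proteins that work with the mitotic kinesins were taken as a list of 17, of which 16 were tested. 14 rose and 1 fell, beside 34.9% and 32.7% of all tested genes. Their median log2 fold change was 0.68, the same to 2 decimals as that of the mitotic kinesins. *CENPE*, the kinetochore kinesin that carries no KIF symbol, rose from 5.79 ± 0.309 to 10.3 ± 0.431 FPKM (log2 fold change 0.82). *RACGAP1*, the centralspindlin partner of *KIF23*, rose by 0.59 and *TPX2*, the spindle factor that binds *KIF11*, by 0.58. The largest rise was that of the cytokinetic ring protein *ANLN*, from 22.5 ± 0.401 to 78.1 ± 1.72 FPKM (1.79), and the fall was that of the spindle pole protein *NUMA1* (-0.52). *PRC1*, to which *KIF4A* binds on the central spindle, stood at 0.179 and 0.299 FPKM and was not tested. Of its exon bases 57.6% are shared with the gene AC068831.7 on the same strand, so its level is uncertain.

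Among 17 regulators of mitotic genes, 16 were tested, with a median of 0.31. Of these 9 rose and 4 fell, beside 34.9% and 32.7% of all tested genes. *MYBL2* (B-MYB) rose from 52.1 ± 2.26 to 101 ± 1.67 FPKM (log2 fold change 0.95) and *FOXM1* from 15.4 ± 0.879 to 22.8 ± 1.04 (0.56), both activators of CHR genes. Opposite *ITFG2*, which averaged 3.00 FPKM, lie 15.9% of the exon bases of *FOXM1*. The largest rise was that of *CCNF* (1.08), which restrains B-MYB, and the largest fall that of *NFYB* (-0.89), a subunit of the CCAAT-binding factor NF-Y.

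Partners of the transport kinesins, 18 genes with 14 tested, had 5 that rose and 6 that fell, with a median of -0.09. Over all tested genes 34.9% rose and 32.7% fell, so that the share of these partners that rose was near the background. The kinesin light chain *KLC1* rose (0.29, from 3.46 to 4.27 FPKM), while *KLC2* did not pass (-0.01, adjusted p = 0.897). Of the exon bases of *KLC1* 29.9% lie opposite *XRCC3*, which averaged 2.58 FPKM. Whether strand was used in counting is not given, so the level of *KLC1* is uncertain. *KIFAP3*, the non-motor subunit of kinesin-2, fell (-0.21) where its motor partner *KIF3A* rose. *KIF1BP*, which binds and blocks kinesin motors, had the largest rise (0.56), and *TRAK1*, the mitochondrial adaptor of kinesin-1, the largest fall (-0.65). Only 3 partners passed upwards when TPC-1 replicate 1 or 2, or *RRM2*-OE-TPC-1 replicate 2 or 3, was left out.

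For comparison, of 25 genes of dynein and dynactin, the minus-end transport motor, 24 were tested. 15 rose and 3 fell, beside 34.9% and 32.7% of all tested genes, with a median of 0.26. The heavy chain *DYNC1H1* rose from 27.9 ± 0.260 to 54.1 ± 1.2 FPKM (log2 fold change 0.95), a larger value than for any transport kinesin tested here. The largest rise was that of the neuronal intermediate chain *DYNC1I1* (2.33, from 0.0534 to 0.670 FPKM), which passed the filter through the infected libraries and whose fold change depends on the pseudocount, and the largest fall that of the adaptor *BICD1* (-0.86).

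Tubulins form the microtubules on which kinesins move. Of 14 tubulin genes 11 were tested, with a median of 1.61. 10 rose and 1 fell, beside 34.9% and 32.7% of all tested genes. 8 of them passed an absolute log2 fold change of 1, beside 11.5% of all tested genes. *TUBB2A* rose most, from 3.59 ± 0.353 to 24.1 ± 1.89 FPKM (log2 fold change 2.72), and *TUBG2*, a gamma-tubulin, fell (-0.22). Summed tubulin FPKM was 370.1 to 392 in TPC-1 and 1300 to 1361 in *RRM2*-OE-TPC-1. Tubulin genes have near-identical copies, so the split of reads among them is uncertain.

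**Figure D5:**
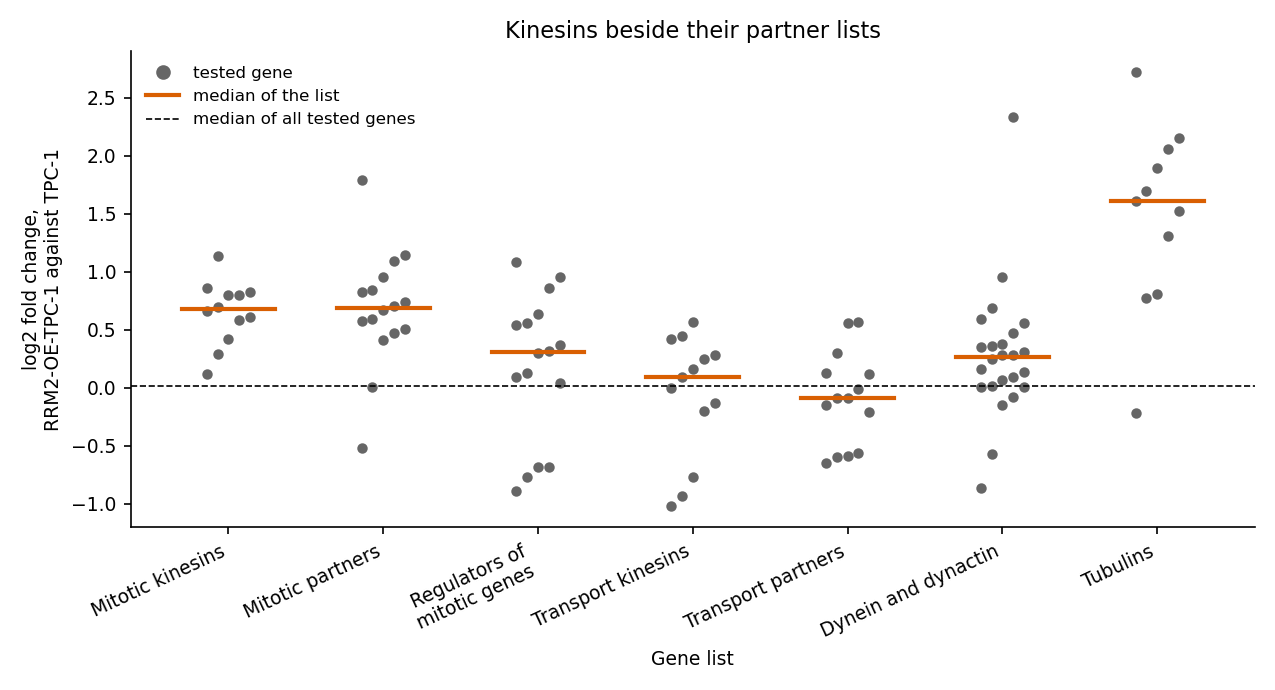
Log2 fold change, RRM2-OE-TPC-1 against TPC-1, of each tested gene (points) in the lists of mitotic kinesins, their partners, regulators of mitotic genes, transport kinesins, their partners, dynein and dynactin, and tubulins, with the median of each list (orange bar) and of all tested genes (dashed line, 0.01). The medians are 0.68, 0.68, 0.31, 0.09, -0.09, 0.26 and 1.61.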

How the data were processed

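The authors aligned paired reads with HISAT2 (version 2.0.5), counted them per gene with featureCounts (version 1.5.0) and deposited FPKM, per the submitters' processing notes on GRCh38.p14. Gene positions were those of GENCODE 29. The methods describe poly(A) selection and the labels removal of ribosomal RNA with RNase R digestion. In every library the FPKM values times gene length were whole multiples of 1 read (tolerance 0.01), which gave the reads used for depth, filter and floors of 3 reads. Floors cover counting error only.

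Here, limma 3.58.1 (R 4.3.3) with a variance trend was fitted to log2(FPKM + 0.1) of all tested genes in 6 libraries, after a check on simulated data. That check recovered 187 of 193 changed genes, with 10 false calls, among 13562 tested genes. Far fewer genes changed there than in these data, so it does not cover their setting. Lists are given by counts and medians with no test. The series calls its replicates biological triplicates, and separate infections are not described. The limma p-values thus measure spread between libraries of each line and not spread between infections. Same-numbered libraries did not deviate together (correlations -0.055 to -0.006), so no block was used.

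The members and lists were chosen with earlier results of these data known. All kinesins are named. Partners named are a fixed set plus the largest rise and fall of each list, and other genes were named after their values were seen, as were the pairs of relatives and the neighbours of *KIF12*. Alternatives were other pseudocounts, filters, scalings, voom on recovered reads, protein-coding genes only, a replicate block, *KIF2A* as mitotic and each library left out. Protein sequences were not analysed here. Promoters were from RefSeq, read with Python 3.11.15.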

Additional observations from a re-analysis of the deposited data

How the results depend on the processing

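Over 15 alternatives, 17 to 19 kinesins rose and 5 or 6 fell, and 11 or 12 of the mitotic kinesins rose. The median log2 fold change of the mitotic kinesins was 0.64 with a pseudocount of 1 and 0.62 with scaling to library totals, which moved the median of all genes by -0.06. The number of transport partners that rose was 3 instead of 5 with scaling to library totals and 3 with the replicate block, and 3 to 4 when each library was left out. Under the replicate block *KIF7* no longer passed (adjusted p = 0.0862) and the other 31 kinesins kept their calls. *KIF7* also lost its call with scaling to library totals (log2 fold change 0.07) and with voom, while *KIF3C* passed with library totals (log2 fold change -0.19) and *KIF21A* with voom, with protein-coding genes only and without TPC-1 replicate 2, and *KIF18A* without *RRM2*-OE-TPC-1 replicate 1. Values near 0 changed sign in 4 kinesins that did not pass: *KIF2A* with library totals (-0.0077), *KIF13A* without TPC-1 replicate 3 (0.007), without *RRM2*-OE-TPC-1 replicate 2 (0.001) and without replicate 3 (0.012), *KIF26B* without *RRM2*-OE-TPC-1 replicate 1 (0.022) and *KIF9* without TPC-1 replicate 1 (0.024). With each library left out, *KIF13A* ranged from -0.034 to 0.012, *KIF26B* from -0.064 to 0.022 and *KIF9* from -0.17 to 0.024. *KIF2A* ranged from 0.0099 to 0.10 and so kept its sign there. Kinesins past a log2 fold change of 1 numbered 2 to 4, and with a pseudocount of 1 all genes past it numbered 716 instead of 1560. The 10 untested kinesins were left out by the filter on low values. The cause of these differences was not tested.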

Other observations

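The 4 other tested genes within 250 kb of *KIF12* fell in *RRM2*-OE-TPC-1, where 32.7% of all tested genes fell. *AMBP* went from 8.12 to 1.52 FPKM (log2 fold change -2.34), *AKNA* from 10.4 to 3.78 (-1.43), *COL27A1* from 13.7 to 7.79 (-0.81) and *ZNF618* from 14.9 to 10.8 (-0.46), each at a limma adjusted p of 6.76e-05 or less. These neighbours were looked at after the fall of *KIF12* had been seen.

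The nearest pair of kinesin genes, *KIF14* and *KIF21B* on chromosome 1, lie 349 kb apart and moved in opposite directions, by 0.61 and -0.93 on the log2 scale.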
